A study of Mus musculus with 4 samples.

Results

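The ATF4 stress output genes examined here are 10 known targets of the transcription factor ATF4 that lie outside amino acid synthesis and transport, taken by name from tables keyed by Entrez gene number: Gdf15, Ddit4, Sesn2, Chac1, Trib3, Eif4ebp1, Pck2, Nupr1, Vldlr and Stc2. They are 10 of 15114 Entrez-numbered genes that the tables list in any library. The libraries are of mouse bone marrow-derived macrophages of the C57BL/6 strain, grown for 7 days with M-CSF (20 ng/mL) and then exposed for 24 h to IL-4, at 20 ng/mL. In 2 libraries the genotype is Eif2ak3 fl/fl, and in 2 it is LysMcre x Eif2ak3 fl/fl; they are called PERK WT and PERK KO below, with replicates 1 and 2 of each. Both groups therefore carry the floxed allele of Eif2ak3, the gene of the kinase PERK, and the KO group also carries Cre under control of the lysozyme M locus, which is active in myeloid cells. Whether replicates 1 and 2 were different mice or different dishes is not stated in the labels, so p-values measure only the spread between these libraries, which may be technical. Age is not stated, and unstimulated cells are not analysed here.

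PERK sits in the endoplasmic reticulum membrane and phosphorylates the translation factor eIF2α when unfolded protein accumulates. Phosphorylated eIF2α slows general translation but favours translation of Atf4 mRNA, and ATF4 protein then switches on genes that let the cell adapt, save resources or, after prolonged stress, die. Other eIF2α kinases, which sense amino acid shortage, heme shortage or viral RNA, converge on the same factor. The genes followed here are the parts of that output that signal to other tissues (Gdf15, Stc2), restrain growth and translation (Ddit4, Sesn2, Eif4ebp1), feed back on stress signalling (Trib3, Nupr1), act on glutathione and carbon metabolism (Chac1, Pck2) or take up lipoproteins (Vldlr).

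ATF4 binds DNA together with C/EBP-family proteins at a composite element, often called CARE, whose letters TGATGNAA (TTNCATCA on the other strand) were searched on both strands in RefSeq promoter windows of 300 bases on GRCm38.p6, running from 250 bases before to 50 bases after an annotated start. Of the 10 genes, 9 had a window, and 5 of these 9 held a match: Chac1, Nupr1, Pck2, Trib3 and Vldlr. Among all 32851 windows of that length 3.97% held one. Counted by gene, 4.51% of all 27025 genes with a window held one, and among 7799 tested genes with a window 2.68% did. The 5 matches are given in 30 bases each, 5′ to 3′ on the strand of the gene, with the match in capitals, because they are the stretch that these genes share. They lie at chr2:119351038-119351067 for Chac1, on the plus strand, chr7:126625562-126625591 for Nupr1, on the minus strand, chr14:55540152-55540181 for Pck2, on the plus strand, chr2:152344028-152344057 for Trib3, on the minus strand, and chr19:27216809-27216838 for Vldlr, on the plus strand.
Chac1: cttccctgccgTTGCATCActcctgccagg
Nupr1: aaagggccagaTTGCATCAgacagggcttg
Pck2: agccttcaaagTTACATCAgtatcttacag
Trib3: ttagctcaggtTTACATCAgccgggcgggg
Vldlr: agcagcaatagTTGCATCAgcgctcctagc

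All 5 matches read in the orientation opposite to the gene, 3 as TTGCATCA and 2 as TTACATCA. Counted from the start, with negative positions before it, the match began at -193 in Chac1, -110 in Nupr1, -103 in Pck2 and 15 in Trib3. The bases at the annotated Trib3 start were not found near the start of a GENCODE transcript of that gene, so its position is less certain. In Vldlr it began at -200 from the second of the annotated starts. In the windows of Gdf15, Ddit4, Sesn2 and Stc2 these letters did not occur, which concerns these windows only. The palindrome TGACGTCA, bound by relatives of ATF4, occurred in 0 of the 9 and in 1.79% of all windows. Counted by gene, it occurred in 2.03% of all genes with a window and in 3.95% of the tested ones. Neither motif search measures binding.

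The 250 bases before the start are shown for Chac1, Nupr1 and Pck2, with the match in capitals, and for Gdf15, which had the lowest log2 change of the 7 tested genes and whose window held no match. They are chr2:119350992-119351241 for Chac1, plus strand, chr7:126625471-126625720 for Nupr1, minus strand, chr14:55540016-55540265 for Pck2, plus strand, and chr8:70632457-70632706 for Gdf15, minus strand, the more upstream of its annotated starts.
Chac1: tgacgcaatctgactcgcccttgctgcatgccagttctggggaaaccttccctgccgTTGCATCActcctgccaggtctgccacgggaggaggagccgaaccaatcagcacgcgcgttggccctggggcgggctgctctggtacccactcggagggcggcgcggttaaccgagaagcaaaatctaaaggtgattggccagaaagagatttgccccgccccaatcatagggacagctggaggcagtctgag
Nupr1: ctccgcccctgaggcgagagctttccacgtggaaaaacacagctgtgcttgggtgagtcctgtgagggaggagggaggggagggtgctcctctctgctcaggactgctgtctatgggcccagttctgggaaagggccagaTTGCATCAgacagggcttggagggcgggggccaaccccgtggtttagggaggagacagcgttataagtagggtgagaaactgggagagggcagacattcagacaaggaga
Pck2: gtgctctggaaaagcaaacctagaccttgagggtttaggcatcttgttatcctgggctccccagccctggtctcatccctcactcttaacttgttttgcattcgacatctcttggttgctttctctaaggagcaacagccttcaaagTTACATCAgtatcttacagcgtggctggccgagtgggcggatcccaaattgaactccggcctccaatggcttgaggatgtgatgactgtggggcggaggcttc
Gdf15: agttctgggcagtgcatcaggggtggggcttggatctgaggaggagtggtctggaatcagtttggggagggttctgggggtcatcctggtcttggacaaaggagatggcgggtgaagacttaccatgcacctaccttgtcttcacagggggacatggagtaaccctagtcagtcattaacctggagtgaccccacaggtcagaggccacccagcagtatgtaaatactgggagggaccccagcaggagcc

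Some facts of the libraries bear on all the values. The tables give FPKM, fragments scaled by gene length and by the total mapped in the library, to 2 decimals and without counts, so depth is unknown. Entrez-numbered genes held 58.9% and 57.6% of FPKM in the WT libraries, 54.8% in KO replicate 1 and 41.1% in KO replicate 2, and KO replicate 2 listed 29618 features that no other library listed. The median tested gene had a log2 change of -0.14 between genotypes (KO minus WT, on log2(FPKM + 1)) as deposited, and -0.0042 after the libraries were scaled by their median ratio. Changes are as deposited unless given as relative to the median gene, which subtracts that shift. Eif2ak3 stood at 10.9 and 8.88 FPKM in WT and at 6.55 and 4.88 FPKM in KO, and Lyz2, whose locus carries the Cre, at 627 and 699 FPKM against 253 and 201 FPKM. Markers of macrophages (8 of 8 above 1 FPKM in some library) summed to 1905 and 2360 FPKM in WT and 1748 and 1442 FPKM in KO. Lyz2 is 1 of these 8, so the difference between their sums includes its own. The 5 IL-4 markers summed to 3753 and 4342 FPKM in WT against 4355 and 3147 FPKM in KO. Markers of other cells summed to at most 3.85 FPKM in any library, for endothelium, with neutrophils at 3.7, B cells at 2.33, dendritic cells at 1.26, stroma at 0.49, T and NK cells at 0.13 and erythroid cells at 0.04 FPKM at their highest. All 5 mast cell and basophil markers were at 0, as were Cd209a, Elane, Ncr1, Hbb-bs, Hba-a1 and Hba-a2.

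The 10 genes covered a wide range of levels. Eif4ebp1 stood highest, at 43.3 ± 3.33 FPKM in WT (mean ± SD, n = 2, as for all such values below). Nupr1 followed at 12.1 ± 2.43, Pck2 at 11.2 ± 1.61 and Gdf15 at 9.32 ± 2.74 FPKM, neighbours that did not differ beyond their spread. Sesn2 stood at 6.96 ± 1.26, Trib3 at 5.36 ± 1.61 and Chac1 at 3.38 ± 1.36 FPKM, with Sesn2 and Trib3 again within their spread and Chac1 lowest of the 7 genes that passed the filter for testing, an average of 1 FPKM or more across the 4 libraries. Ddit4 did not pass it, with 0.67 ± 0.255 FPKM in WT, and neither did Stc2 and Vldlr, which stayed at or below 0.11 FPKM in every library. In KO the order began with Eif4ebp1, Nupr1 and Pck2 as in WT, while Sesn2, at 6.16 ± 0.707 FPKM, stood above Gdf15, at 5.17 ± 0.573 FPKM, by more than the SD of Sesn2.

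**Figure D1:**
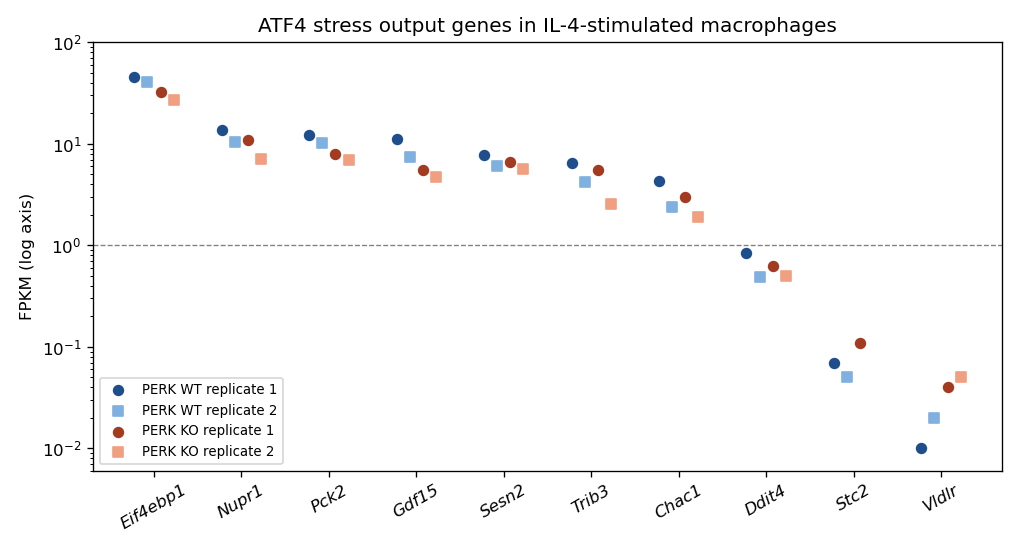
FPKM of the 10 ATF4 stress output genes (log axis) in each of the 4 libraries, with circles for replicate 1 and squares for replicate 2 of each genotype; the dashed line is 1 FPKM and a value of 0 (Stc2 in KO replicate 2) is not drawn. For Gdf15, Pck2 and Eif4ebp1 both KO points lie below both WT points, and for every gene averaging 1 FPKM or more the circle lies above the square of the same genotype.

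The design asks of each gene whether its level differs between the genotypes. Gdf15, Pck2 and Eif4ebp1 had the lowest KO values relative to WT, at 55.4%, 66.4% and 68.7% of the WT mean. In the test across all 9501 genes (limma, two-sided, Benjamini-Hochberg adjusted), 0 of the 7 tested genes passed an adjusted p of 0.05, a threshold that 0.0211% of all tested genes passed. At an unadjusted limma p under 0.05, 3 of the 7 were lower in KO (Gdf15, Pck2 and Eif4ebp1) and 0 higher, against 3.52% of all tested genes lower and 0.705% higher. After median-ratio scaling the same 3 genes were lower at that level, against 1.27% of all tested genes, and 0 were higher, against 1.87%. The 3 became 0 without WT replicate 1, 1 without KO replicate 2, and 5 without WT replicate 2 or without KO replicate 1. Over all 9501 genes, in either direction, 401 passed that level with all libraries, and 216, 345, 583 and 1163 in those 4 fits, in the same order. In those 3 genes both KO libraries lay below both WT libraries, as they did in 35.6% of all tested genes as deposited and in 14.1% after scaling. In 0 of the 7 did both KO libraries lie above both WT libraries, against 4.14% of all tested genes as deposited and 15% after scaling. All 7 had a log2 change below that of the median gene, which 50% of tested genes do, and the median over the 7 was -0.41 as deposited, or -0.27 relative to the median gene. That count was 4 of 7 without WT replicate 1, with a relative median of -0.08, and 5 of 7 without KO replicate 2, with -0.07.

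Among the secreted factors, Gdf15 encodes a stress-induced hormone of the TGF-β family that acts through a receptor of the hindbrain to lower food intake. Gdf15 (Entrez 23886, chr8:70629393-70632470) measured 11.3 and 7.38 FPKM in the WT libraries and 5.57 and 4.76 FPKM in the KO libraries. WT replicate 1 was the highest library and the groups did not overlap. The KO mean was 55.4% of the WT mean, and the log2 change was -0.72 (SE 0.21, 95% confidence interval -1.22 to -0.22, limma adjusted p = 0.776), or -0.58 relative to the median gene. Of the tested genes 0.737% had a lower change. Without WT replicate 1 the change was -0.45, with an adjusted limma p of 0.993. Stc2 encodes stanniocalcin-2, a secreted glycoprotein that inhibits the protease PAPP-A. It was all but absent, at 0.07 and 0.05 FPKM in WT and 0.11 and 0 FPKM in KO, with KO replicate 1 highest and KO replicate 2 not listing it.

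A further 3 members restrain growth signalling or translation. Eif4ebp1 encodes 4E-BP1, which binds the cap-binding protein eIF4E and blocks initiation until mTORC1 phosphorylates it. Eif4ebp1 (Entrez 13685, chr8:27260327-27275656) measured 45.6 and 40.9 FPKM in WT and 32.2 and 27.2 FPKM in KO. The groups did not overlap, and the SDs of 3.33 and 3.49 FPKM were small beside a difference in means of 43.3 to 29.7 FPKM. The log2 change was -0.53 (SE 0.16, 95% confidence interval -0.92 to -0.15, limma adjusted p = 0.776), or -0.39 relative to the median gene, and 2.13% of tested genes had a lower one. Sesn2 encodes sestrin 2, a leucine-binding inhibitor of mTORC1. Sesn2 (Entrez 230784, chr4:132492804-132510456) measured 7.85 and 6.07 FPKM in WT and 6.66 and 5.66 FPKM in KO, so KO replicate 1 lay between the WT libraries. Its log2 change was -0.15 (SE 0.17, 95% confidence interval -0.56 to 0.26, limma adjusted p = 0.792), at -0.01 from the median gene, and its sign turned without WT replicate 1 (0.01). Ddit4 encodes REDD1, which inhibits mTORC1 through the TSC complex and is also induced by hypoxia and glucocorticoids. Ddit4 (Entrez 74747, chr10:59949675-59951770) was low, at 0.85 and 0.49 FPKM in WT and 0.62 and 0.5 FPKM in KO, with overlapping groups and no test under the filter. Without a filter on low values its log2 change was -0.09 (SE 0.13, limma adjusted p = 0.837).

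Of the feedback regulators, Trib3 encodes a pseudokinase that binds and restrains ATF4 and CHOP and inhibits AKT. Trib3 (Entrez 228775, chr2:152337425-152344060) measured 6.49 and 4.22 FPKM in WT and 5.48 and 2.56 FPKM in KO. The groups overlapped, since KO replicate 1 exceeded WT replicate 2. Its log2 change of -0.38 (SE 0.31, 95% confidence interval -1.13 to 0.37, limma adjusted p = 0.776) became 0.05 without KO replicate 2 and -0.81 without KO replicate 1. Relative to the median gene it was -0.24. Nupr1 encodes a small disordered nuclear protein induced by many stresses. Nupr1 (Entrez 56312, chr7:126623246-126625470) measured 13.8 and 10.4 FPKM in WT and 10.8 and 7.08 FPKM in KO, again with KO replicate 1 above WT replicate 2. Its log2 change was -0.41 (SE 0.23, 95% confidence interval -0.95 to 0.13, limma adjusted p = 0.776), or -0.27 relative to the median gene, and -0.13 without KO replicate 2. The RefSeq table places a long non-coding gene, Gm39087, over Nupr1, and no library listed it. Whether reads were assigned by strand is not given in the sources used here, so their reads cannot be told apart.

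Of the metabolic members, Pck2 encodes the mitochondrial form of phosphoenolpyruvate carboxykinase, which turns oxaloacetate into phosphoenolpyruvate. Pck2 (Entrez 74551, chr14:55540263-55550020) measured 12.3 and 10.1 FPKM in WT and 7.98 and 6.89 FPKM in KO, without overlap. The KO mean was 66.4% of the WT mean, and the log2 change was -0.53 (SE 0.16, 95% confidence interval -0.91 to -0.15, limma adjusted p = 0.776), or -0.39 relative to the median gene. Chac1 encodes a γ-glutamylcyclotransferase that breaks down glutathione. Chac1 (Entrez 69065, chr2:119351242-119354326) measured 4.34 and 2.41 FPKM in WT and 2.97 and 1.92 FPKM in KO, with overlap. Its log2 change of -0.33 (SE 0.27, 95% confidence interval -0.97 to 0.32, limma adjusted p = 0.776) was -0.0022 without WT replicate 1. Relative to the median gene it was -0.19 with all libraries and 0.14 without WT replicate 1. Vldlr encodes the very low density lipoprotein receptor. It was listed at 0.01 and 0.02 FPKM in WT and 0.04 and 0.05 FPKM in KO, a few steps of the 0.01 FPKM in which values are given. Both KO libraries were above both WT libraries, and without the filter the log2 change was 0.04 (SE 0.02, limma adjusted p = 0.803).

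**Figure D2:**
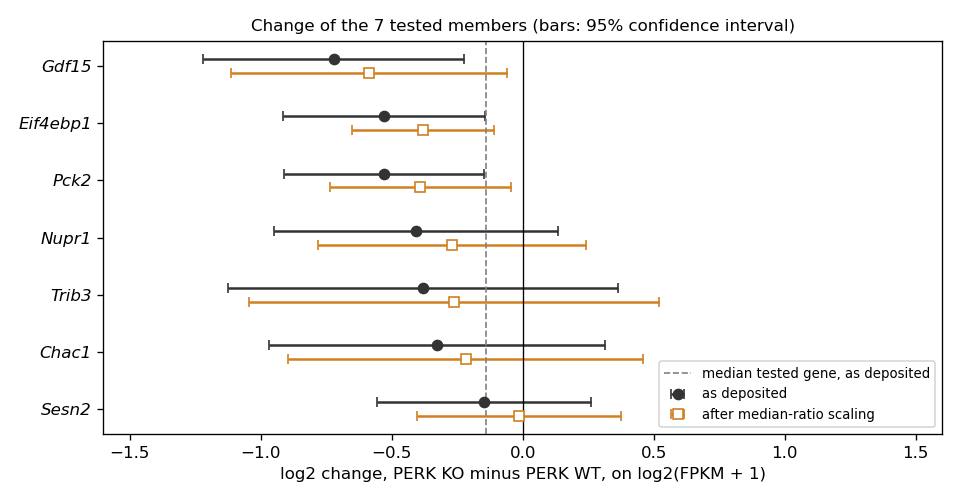
Log2 change of the 7 tested genes, PERK KO minus PERK WT on log2(FPKM + 1), as deposited (filled circles) and after median-ratio scaling (open squares), with bars for the 95% confidence interval of the limma fit, 2 libraries per genotype. The dashed line marks the median tested gene as deposited (-0.14). The intervals of Gdf15, Eif4ebp1 and Pck2 lie below 0 in both forms, and those of Nupr1, Trib3, Chac1 and Sesn2 include 0.

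A further pattern ran with the replicate number. In all 7 tested genes replicate 1 stood above replicate 2 within WT and also within KO, as deposited and after median-ratio scaling. Of all tested genes 35.8% did so as deposited and 26.2% after scaling. The step between replicates was as large as that between genotypes in several of them. Chac1 was 1.80-fold higher in WT replicate 1 than in WT replicate 2 and 1.55-fold higher in KO replicate 1 than in KO replicate 2, while its KO mean was 72.4% of the WT mean. Trib3 was 1.54-fold and 2.14-fold higher in replicate 1, and Nupr1 1.33-fold and 1.53-fold. Eif4ebp1 and Pck2 had small steps, 1.12-fold and 1.18-fold for Eif4ebp1 and 1.23-fold and 1.16-fold for Pck2. Gdf15 had 1.53-fold in WT and 1.17-fold in KO. What the replicate number stands for is not given in the labels.

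After median-ratio scaling the median over the 7 genes, as a log2 deviation from each gene's own mean, stood at 0.34 and -0.06 in the WT libraries and at 0.02 and -0.27 in the KO libraries. WT replicate 1 was thus the highest and KO replicate 2 the lowest, and KO replicate 1 lay above WT replicate 2. Gdf15, Eif4ebp1 and Pck2 kept the full order of WT replicate 1, WT replicate 2, KO replicate 1 and KO replicate 2, as 12.6% of tested genes did as deposited and 4.22% after scaling. The amino acid and aminoacyl-tRNA synthetase lists described below also had WT replicate 1 highest and KO replicate 2 lowest. Their medians were 0.28 and -0.02 in WT and -0.09 and -0.18 in KO for amino acid genes. For synthetases they were 0.22 and 0.03 against -0.04 and -0.20. The full order held in 7 of 16 tested amino acid genes and 11 of 13 synthetases as deposited, and in 4 and 7 after scaling. The hypoxia target list also had higher medians in replicate 1 of both genotypes, at 0.11 and -0.20 in WT and 0.27 and -0.14 in KO, but KO replicate 1 was its highest library.

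**Figure D3:**
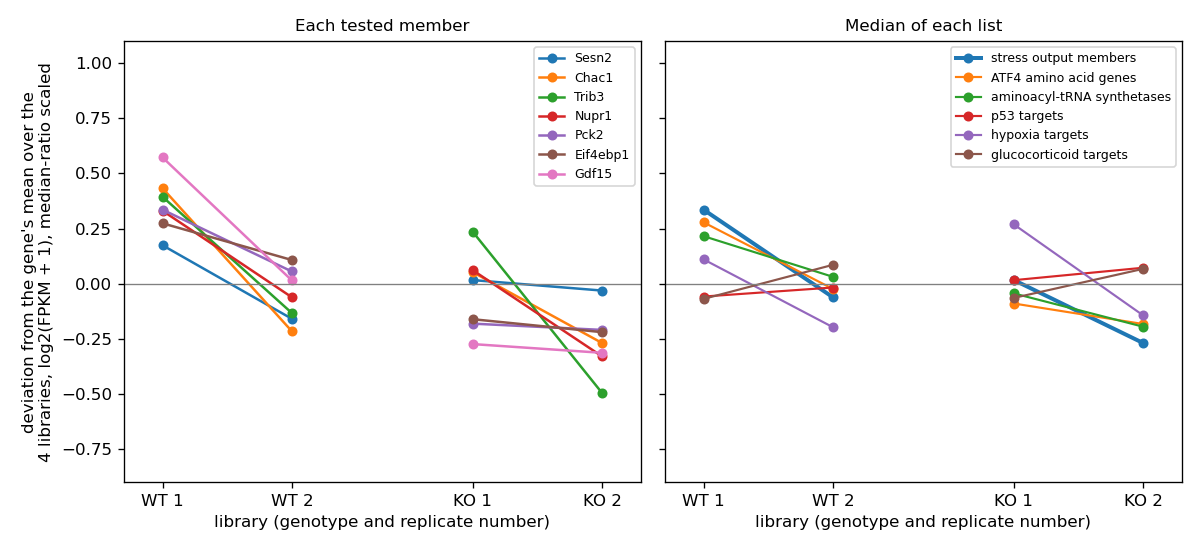
Deviation from each gene's mean over the 4 libraries on log2(FPKM + 1) after median-ratio scaling, for each of the 7 tested genes (left) and as the median of 6 gene lists (right); lines join the replicates of a genotype. On the left every replicate 1 point lies above the replicate 2 point of its genotype, and Gdf15, Eif4ebp1 and Pck2 have both KO points below both WT points.

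Upstream of these genes, 0 of the 12 pathway transcripts passed the test. Atf4 mRNA measured 147 and 124 FPKM in WT and 115 and 99.5 FPKM in KO (log2 change -0.33, SE 0.19, limma adjusted p = 0.776), and its change relative to the median gene was -0.19. Both KO values lay below both WT values, as in 35.6% of all tested genes as deposited and 14.1% after scaling. After median-ratio scaling Atf4 stood at 139 and 117 FPKM in WT and 114 and 112 FPKM in KO, with WT replicate 2 close to both KO libraries. Ddit3, the gene of the pro-apoptotic factor CHOP, measured 33 and 32 FPKM against 33.6 and 31.2 FPKM. Atf3, a factor that ATF4 induces, measured 186 and 185 FPKM against 198 and 186 FPKM. Relative to the median gene, Ddit3 had a log2 change of 0.13, Atf3 0.19, Atf5 0.31, Cebpb -0.13 and Cebpg -0.10. The phosphatase subunit genes Ppp1r15a and Ppp1r15b had -0.03 and 0.05. After median-ratio scaling both KO libraries lay above both WT libraries in 4 of the 12, Ddit3 and Atf3 among them, against 15% of all tested genes. They lay below in 2 of the 12, against 14.1%. Of the other eIF2α kinases, Eif2ak1 (heme) had a relative change of -0.07, Eif2ak4 (amino acids) 0.22 and Eif2ak2 (double-stranded RNA) 0.42. Of these 12 genes 1 was lower at an unadjusted limma p under 0.05, against 3.52% of all tested genes. It was Eif2ak3, the floxed gene, whose KO mean was 57.8% of the WT mean. The tables give 1 value for the whole gene, which does not measure the floxed part by itself.

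Because both KO values of Atf4 mRNA lay below both WT values, each tested gene was also divided by Atf4 within its library, which removes the scaling between libraries. This ratio was chosen after the values had been seen. Gdf15 stood at 0.0768 and 0.0596 of Atf4 in WT and at 0.0482 and 0.0478 in KO. Pck2 stood at 0.0841 and 0.0812 against 0.0691 and 0.0692, and Eif4ebp1 at 0.311 and 0.331 against 0.279 and 0.274. In these 3 of 7 genes both KO ratios lay below both WT ratios, as in 2.35% of all tested genes. Sesn2 went the other way, at 0.0536 and 0.049 in WT and 0.0577 and 0.0569 in KO, as did 34.2% of all tested genes. The ratios of Chac1, Trib3 and Nupr1 overlapped between genotypes. The fall relative to Atf4 was not particular to these stress output genes. For Asns, Psat1, Mthfd2 and Cars, picked from the amino acid and synthetase lists, both KO ratios also lay below both WT ratios. Asns, for example, stood at 0.355 and 0.285 of Atf4 in WT and at 0.251 and 0.221 in KO. With 2 libraries against 2, the smallest two-sided p of an exact permutation test is 0.333, so none of these ratios can pass a test alone, and after adjustment over the 18 ratios computed none was below 0.666.

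**Figure D4:**
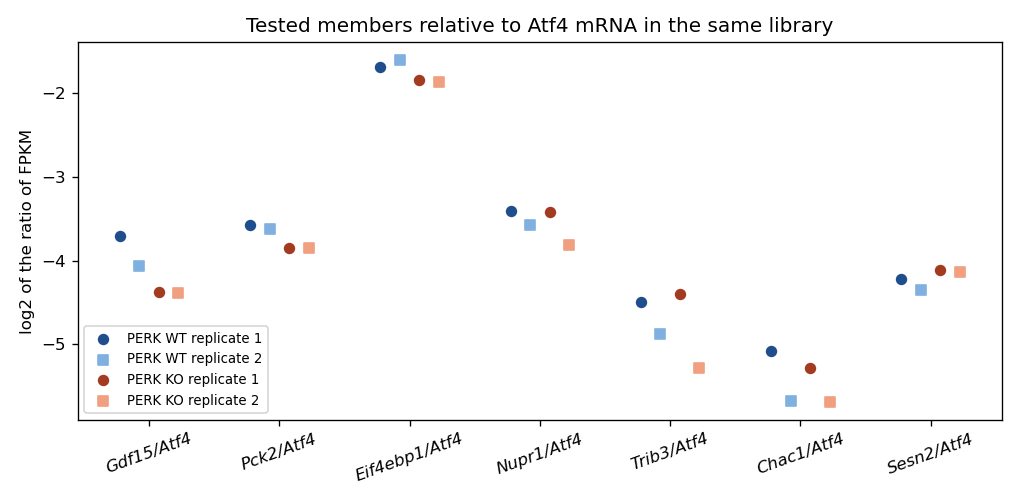
Log2 of each tested gene's FPKM divided by the FPKM of Atf4 in the same library, for the 4 libraries. The KO points of Gdf15, Pck2 and Eif4ebp1 lie below both WT points, and those of Sesn2 lie above them.

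The closest paralogues of the members gave a comparison within families. Of 13 paralogues 7 were tested, 1 of the 7 lay below the median gene, and their median change was 0.02, with 0 called by limma and 0 at an unadjusted p under 0.05. Sesn1, which p53 and FOXO factors control, measured 16.4 and 19 FPKM in WT and 15.4 and 18.5 FPKM in KO, so it was the more abundant sestrin, and here replicate 2 was the higher in both genotypes. Sesn3 measured 1.46 and 2.42 FPKM against 1.75 and 2.13 FPKM. Chac2, the constitutive relative of Chac1, measured 2.53 and 2.31 FPKM against 2.32 and 3.15 FPKM. Trib1 measured 3.02 and 4.94 FPKM against 4.05 and 3.86 FPKM. Eif4ebp2 and Eif4ebp3 stayed at or below 4.05 FPKM, well under Eif4ebp1. Pck1, the cytosolic partner of Pck2, was listed in no library, and Stc1, Ddit4l, Trib2 and Nupr2 stayed at or below 0.17 FPKM. Lrp8, a lipoprotein receptor related to Vldlr, measured 0.86 and 0.61 FPKM against 0.62 and 0.38 FPKM.

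The ratio of member to paralogue within a library was compared for 6 pairs. Eif4ebp1 to Eif4ebp3 had ratios of 16.2 and 21.8 in WT and 13.8 and 13.8 in KO, without overlap (exact permutation p = 0.333, the smallest possible). The others overlapped. Chac1 to Chac2 had ratios of 1.72 and 1.04 against 1.28 and 0.61, and Trib3 to Trib1 2.15 and 0.854 against 1.35 and 0.663. Sesn2 to Sesn1 had 0.478 and 0.319 against 0.432 and 0.305, a log2 difference between genotypes of -0.11 beside an SD of 0.41 in WT and 0.35 in KO.

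The amino acid arm of the ATF4 programme gave values of similar size. Of 22 genes of amino acid synthesis and transport 16 were tested, 14 lay below the median gene, and the median log2 change was -0.44 (-0.30 relative to the median gene). By limma 0 passed, with 5 lower and 0 higher at an unadjusted p under 0.05, against 3.52% and 0.705% of all tested genes. After median-ratio scaling 3 were lower at that level, against 1.27%. Asns, the asparagine synthetase gene, had a change of -0.74 (SE 0.23), Psph -0.47 (SE 0.15), Mthfd2 -0.49 (SE 0.16) and Psat1 -0.61 (SE 0.22). The aminoacyl-tRNA synthetase list had a median of -0.40 (-0.26 relative to the median gene), and all 13 of its genes were under the median gene. Again 0 were called by limma. At an unadjusted limma p under 0.05, 5 were lower, against the same 3.52% of all tested genes, and 2 after scaling, against 1.27%. Replicate 1 stood above replicate 2 in both genotypes in 12 of the 16 tested amino acid genes and in 12 of these 13, against 35.8% of all tested genes. After scaling it did so in 10 of the 16 and 10 of the 13, against 26.2%. Both KO libraries lay below both WT libraries in 9 of the 16 and 12 of the 13 as deposited, against 35.6% of all tested genes. After scaling they did so in 5 of the 16 and 10 of the 13, against 14.1%. CARE letters occurred in 5 of 17 amino acid genes with a promoter window and in 5 of 9 such synthetase genes. They occurred in 4.51% of all genes with a window and in 2.68% of the tested ones. Both lists were chosen as parts of the ATF4 programme.

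Several members also answer to other regulators, whose target lists were read beside them. The p53 list, to which Sesn2, Gdf15 and Ddit4 are related as known p53 targets, had a median of -0.07 over 12 tested genes, 0.07 above the median gene, with 3 of 12 below it. Cdkn1a, the classical p53 target, measured 46.7 and 59.1 FPKM in WT and 58.9 and 55.6 FPKM in KO. Bbc3, the pro-apoptotic gene of PUMA, which CHOP as well as p53 can induce, measured 2.14 and 2.86 FPKM in WT and 1.54 and 0.5 FPKM in KO (log2 change -0.83, SE 0.29, limma adjusted p = 0.776). The hypoxia list had a median of -0.06 over 11 genes, with 4 of 11 below the median gene, and the glucocorticoid list -0.09 over 6, with 2 of 6 below it. Limma called 0 genes in each of these 3 lists, with 1 lower at an unadjusted p under 0.05 (Bbc3) and 0 higher as deposited. The shares of all tested genes were 3.52% and 0.705%. After median-ratio scaling Bbc3 was again lower at that level, and 1 hypoxia gene, Ndrg1, was higher (log2 change 0.54). Then 1.27% of all tested genes were lower and 1.87% higher.

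The genes whose 4 values ran most like those of Gdf15 were sought among 6482 named genes averaging 5 FPKM or more, by the Euclidean distance between log2 deviations after median-ratio scaling. Over only 4 libraries this is a description. The nearest was Asns, at a distance of 0.121 beside a length of 0.708 for the Gdf15 profile, followed by the glutathione reductase gene Gsr (0.127), Vwf (0.17), the serine synthesis gene Psat1 (0.178) and Tmem184c (0.197). Gsr measured 8.61 and 5.94 FPKM in WT and 4.77 and 3.6 FPKM in KO. The mean profile of the 7 genes was nearest to Sod1, the cytosolic superoxide dismutase gene (0.019), which measured 93.9 and 72.1 FPKM against 69.4 and 51.7 FPKM. Ncapg2, Naaa, Rassf8 and Nasp came next, at distances of 0.0442, 0.0608, 0.0616 and 0.079 beside a profile length of 0.453.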

How the data were processed

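RNA was measured in 4 libraries, 2 per genotype, from ribosome-depleted total RNA made into stranded, randomly primed libraries, per the labels' protocols. The deposited values are FPKM, computed by the authors, 1 table per library. Per the submitters' processing notes, the build was mm10, and RSEM, Bowtie2, StringTie and HISAT are listed without versions or roles. The annotation and strand setting are not given in the sources used here. FPKM depend on the total mapped in each library, so a library with more signal outside known genes has lower values for all genes. Without counts, counting error was not estimated. A gene missing from a table was taken as 0.

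Symbols for 15094 of 15114 Entrez numbers came from RefSeq's GRCm38.p6 gene table. The 9501 genes averaging 1 FPKM or more were tested on log2(FPKM + 1), a scale that understates changes of low genes, with limma 3.58.1 in R 4.3.3, using a prior variance that follows the mean, two-sided, with Benjamini-Hochberg adjustment. The procedure was tested on simulated data. Members, lists and tests were chosen with earlier results of these data known. All members, their paralogues and the pathway genes are named by rule. Of the paralogues, 1 is not reported here. For other lists, up to 4 genes with the smallest p are named. The ratios to Atf4 were chosen after the values were seen. Alternatives covered scaling, filter, pseudocount, variance prior, feature set, replicate block and each library left out.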

Additional observations from a re-analysis of the deposited data

How the results depend on the processing

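Over all 9501 genes limma called 2. Leaving out single libraries gave between 2 and 43 calls, the 43 without WT replicate 2. With the replicate number as a block it gave 14 calls (6 higher and 8 lower), and 0 members passed (5 were lower at an unadjusted p under 0.05, a level that 657 of all genes passed in either direction, against 401 without the block), with Gdf15 at a limma adjusted p of 0.142. The main fit had no block because the labels give no sign that the numbers pair the libraries. After median-ratio scaling, deviations of same-numbered libraries from their genotype mean correlated at r = 0.078 over all tested genes. With 2 pairs, a value over all genes cannot show whether some genes share a replicate effect, so pairing stays undecided. Median-ratio scaling together with the block, added after seeing the data, gave 2 calls and a limma adjusted p of 0.996 for Gdf15. In that fit 3 members were lower at an unadjusted limma p under 0.05, a level that 367 of all 9501 genes passed in either direction. The median of the tested members relative to the median gene kept its sign in all 14 alternatives, from -0.51 to -0.07. Relative to the median gene, Gdf15, Eif4ebp1, Pck2 and Nupr1 stayed negative in every alternative, while Chac1 was at 0.14 without WT replicate 1. On the same relative scale Sesn2 was at 0.15 and Trib3 at 0.02 without WT replicate 1. Without KO replicate 2 they were at 0.01 and 0.11, and with a minimum of 5 FPKM Sesn2 was at 0.0043. As deposited, and not relative to the median gene, leaving out single libraries moved Sesn2 from -0.31 to 0.0147 (without WT replicate 1). It moved Trib3 from -0.81 to 0.0515 (without KO replicate 2). The cause was not tested. Chac1 and Trib3 could not be fitted with a minimum of 5 FPKM. No member passed an adjusted p of 0.05 in any alternative, the lowest being 0.14 for Gdf15 without WT replicate 2.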
